A study of Mus musculus with 25 samples.

Results

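The comparison described here asks what losing Ripk3 adds in mouse neutrophils that already lack Mlkl. It sets 2 libraries of Ripk3-/- Mlkl-/- neutrophils (replicates 2 and 3) against 3 libraries of Mlkl-/- neutrophils, 5 of the 25 libraries of the series. All 5 come from female C57BL/6J mice of 6 to 13 weeks that the labels mark as not inflamed, with Ptpn6 and Casp8 intact, and the missing Mlkl is shared by both groups. A library titled as Ripk3-/- Mlkl-/- replicate 1 carries the genotype Mlkl-/- Ptpn6∆PMN in its other labels, so it was placed in no group. The study tests how Ptpn6, the phosphatase SHP-1, restrains inflammation that depends on caspase-8 and on Ripk3 and Mlkl, and its other groups add Ptpn6 or Casp8 deletions marked ∆PMN. The labels do not say which Cre line made these deletions. They do not name the Ripk3 and Mlkl alleles either. Whether each library comes from a separate mouse is also not stated, so the p-values measure the spread between libraries, which may be technical.

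Ripk3 is a kinase that joins Ripk1 downstream of death receptors, Toll-like receptors and the nucleic acid sensor Zbp1. It phosphorylates Mlkl, which then moves to the plasma membrane and breaks it open, a death called necroptosis. Ripk3 also takes part in complexes with Ripk1, Fadd and caspase-8 that signal without Mlkl, so removing Ripk3 on top of Mlkl takes away those other activities while the lytic step is already lost. Neutrophils are short-lived granulocytes that carry azurophil, specific and gelatinase granules and express many interferon-stimulated genes.

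The neutrophils were taken from bone marrow by density centrifugation and their mRNA was sequenced. The 5 libraries held 22204980 to 22807931 estimated counts, within the 21598177 to 23187676 of the whole series. Levels are given as CPM, counts scaled to library size by TMM, a quantity that is not divided by transcript length. Changes are log2 ratios of Ripk3-/- Mlkl-/- over Mlkl-/- from edgeR's quasi-likelihood test across 16206 genes, and a gene is called where the Benjamini-Hochberg adjusted p is under 0.05. The libraries fit their label as neutrophils. Summed CPM of 12 neutrophil markers, among them S100a8, Ly6g and Csf3r, was 97588 and 65051 in Ripk3-/- Mlkl-/- libraries and 79027, 91975 and 83640 in Mlkl-/- libraries. Ripk3-/- Mlkl-/- replicate 3 thus had the lowest neutrophil sum. Its erythroid, B cell, T and NK cell, dendritic cell, and stromal and endothelial marker sums were the highest of the 5 libraries. Its eosinophil and monocyte marker sums were the lowest, and the sums of the other marker lists lay between.

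Ripk3 was the only gene called, 1 of 16206 (0.00617%), and without Ripk3-/- Mlkl-/- replicate 3 the count was 17. Ripk3 (chromosome 14, 55784995 to 55788857 in GRCm38.p6) had 0.0465 and 0.0425 CPM in Ripk3-/- Mlkl-/- libraries, against 4.78, 2.51 and 2.78 CPM in Mlkl-/- libraries. The groups lay far apart, with 2 counts in all in Ripk3-/- Mlkl-/- libraries and 227 in Mlkl-/- libraries. The depth-scaled ratio was 1.30% (exact 95% interval 0.157 to 4.76%, for counting error only). The fitted log2 change was -6.08 (SE 0.64, adjusted p = 0.000246, edgeR). Mlkl, the membrane-breaking effector, was low in all 5 libraries, at 0.604 and 0.850 CPM in Ripk3-/- Mlkl-/- and 0.880, 0.512 and 0.753 CPM in Mlkl-/-, against a mean of 4.22 CPM in wild-type libraries. Its log2 change of 0.02 (SE 0.48) changes sign when single libraries are left out.

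Casp8, the protease that can kill the cell or cleave the necroptosis kinases, had 29.7 and 33.5 CPM in Ripk3-/- Mlkl-/- libraries, against 28.8, 26.6 and 24.9 CPM in Mlkl-/- libraries. The groups did not overlap, as for 7.57% of all genes in this direction, but the difference was small (log2 0.24, 95% interval -0.10 to 0.58, edgeR adjusted p = 1). Ptpn6 averaged 591 ± 56.7 CPM in Ripk3-/- Mlkl-/- libraries and 614 ± 112 CPM in Mlkl-/- libraries (SD, n = 2 and 3), and the groups overlapped.

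**Figure D1:**
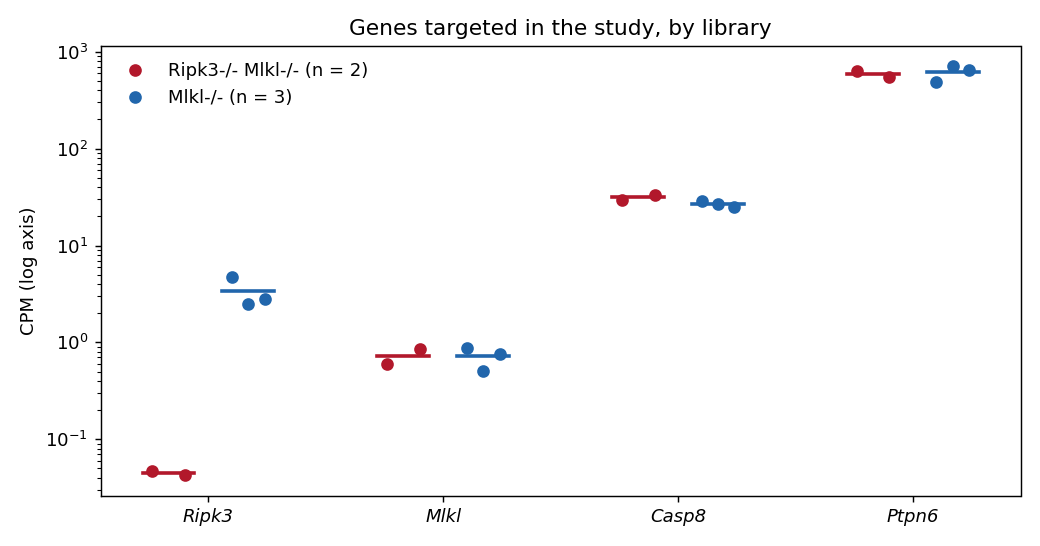
Level in CPM (log axis) of the 4 genes targeted in the study, with 1 point for each library and a line at the group mean. Ripk3 is at 0.0465 and 0.0425 CPM in the Ripk3-/- Mlkl-/- libraries and at 2.51 to 4.78 CPM in the Mlkl-/- libraries, while Mlkl and Ptpn6 overlap.

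Apart from Ripk3, no gene of the necroptosis and caspase-8 complex was called. Of 20 members, all tested, 1 was called (Ripk3), 15 had a log2 change above 0, and the median was 0.05, against 0.01 over all genes tested. Without Ripk3-/- Mlkl-/- replicate 2 the count above 0 was 10. Ripk1, the partner kinase, had 81.7 and 67.4 CPM in Ripk3-/- Mlkl-/- libraries and 61.4, 67.9 and 71.1 CPM in Mlkl-/- libraries. Cflar, the caspase-8 homologue that restrains it, had 118 and 95.5 CPM in Ripk3-/- Mlkl-/- libraries, against 104, 112 and 113 CPM in Mlkl-/- libraries. Both overlapped between the groups. The adaptor Fadd had 3.95 and 4.55 CPM in Ripk3-/- Mlkl-/- libraries, against 4.40, 3.40 and 3.48 CPM in Mlkl-/- libraries. Zbp1, the sensor that binds Ripk3 and is itself interferon-induced, had 63.6 and 37.4 CPM in Ripk3-/- Mlkl-/- libraries, against 26.2, 35.1 and 26.1 CPM in Mlkl-/- libraries. Replicate 2 was well above every Mlkl-/- library and replicate 3 just above the highest (log2 0.79, SE 0.35, unadjusted p = 0.0359, edgeR, not called).

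Across all genes, 508 (3.13%) had an unadjusted p under 0.05, 244 (1.51%) higher and 264 (1.63%) lower in Ripk3-/- Mlkl-/-. Libraries of 1 group differed about as much as libraries of the 2 groups. Over 8860 genes with a mean of at least 5 CPM, 1.90% were over 2-fold apart between the 2 Ripk3-/- Mlkl-/- libraries, against 0.756 to 2.74% between Mlkl-/- libraries. Between the groups it was 1.22 to 2.88%. The fit was precise enough to bound most changes. Among those 8860 genes the median SE was 0.18 on the log2 scale, and for 7940 (89.6%) the 95% interval lay within a log2 change of 1 either way. Under 5 CPM this held for 1902 of 7341 genes (25.9%), so for most low genes a change of over 2-fold was not excluded. These intervals bound the size of a change and do not say which changes would have been called.

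**Figure D2:**
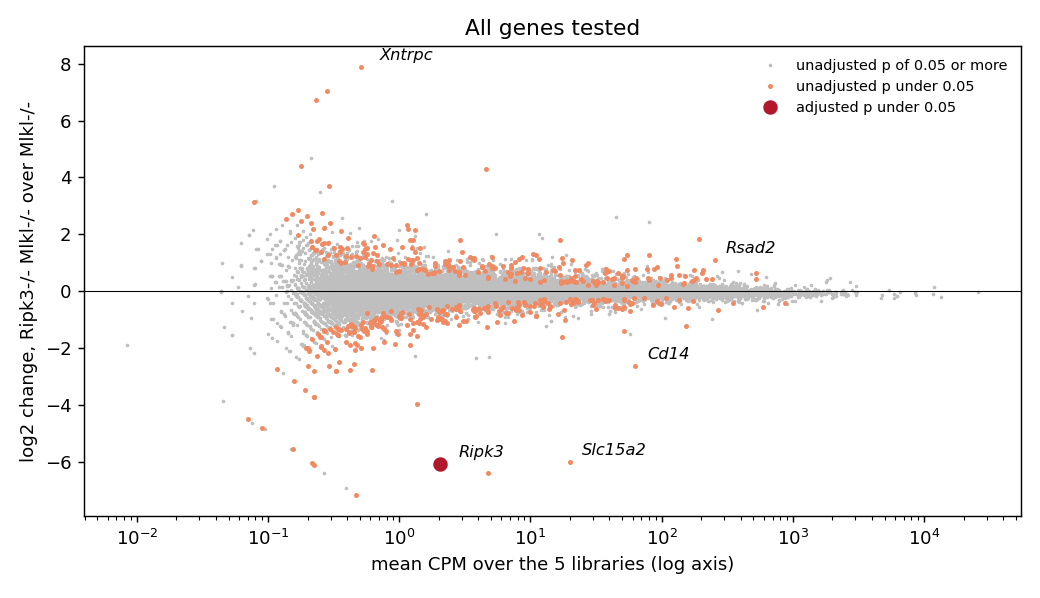
Log2 change, Ripk3-/- Mlkl-/- over Mlkl-/-, against the mean CPM of the 5 libraries (log axis) for the genes tested. Ripk3 is the single gene with an adjusted p under 0.05, and 508 genes had an unadjusted p under 0.05.

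Interferon-response genes lay together on the higher side, none of them called. All 34 listed genes had a log2 change above 0, against 52.7% of all genes, with a median of 0.63 and a range of 0.15 to 1.28. By edgeR 0 of the 34 were called and 17 had an unadjusted p under 0.05, against 1.51% of all genes in this direction. DESeq2 gave the same 0 and 17. For 16 of the 34 the groups did not overlap (7.57% of all genes in this direction). The list holds antiviral effectors, sensors and the transcription factors that drive them, and its mean of log2(CPM + 1) was 6.42 and 5.76 in Ripk3-/- Mlkl-/- libraries, against 5.49, 5.70 and 5.32 in Mlkl-/- libraries.

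Replicate 2 carried much of this. It was above every Mlkl-/- library for 34 of 34 genes and above replicate 3 for 34 of 34, while replicate 3 was above every Mlkl-/- library for 16. Without Ripk3-/- Mlkl-/- replicate 2 the median log2 change was 0.22, 33 of 34 were above 0 and 0 had an unadjusted p under 0.05. Without replicate 3 the median was 0.87. The count of 17 genes with an unadjusted p under 0.05 was 9 without Mlkl-/- replicate 1, 4 without Mlkl-/- replicate 3 and 11 with a replicate block. That count rose to 22 without Mlkl-/- replicate 2, 24 with no filter on low counts and 24 with the compared libraries alone. In bulk libraries, fewer cells of a type and less RNA per cell cannot be told apart. Summed CPM of 10 monocyte markers was 2267 in replicate 2 and 1662 in replicate 3, against 1772, 2262 and 1977 in Mlkl-/- libraries. Its part in the interferon values was not tested.

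Among the effectors, Rsad2 (viperin, an enzyme that makes a chain-terminating nucleotide) had 463 and 294 CPM in Ripk3-/- Mlkl-/- libraries, against 168, 215 and 145 CPM in Mlkl-/- libraries. Both Ripk3-/- Mlkl-/- libraries were above all 3 Mlkl-/- libraries (log2 1.10, SE 0.35, edgeR unadjusted p = 0.00541, adjusted p = 1). Cmpk2, a mitochondrial nucleotide kinase encoded next to Rsad2 on chromosome 12, had 296 and 170 CPM in Ripk3-/- Mlkl-/- libraries and 143, 158 and 119 CPM in Mlkl-/- libraries. Replicate 3 was only slightly above the highest Mlkl-/- library (log2 0.73, SE 0.23). Parp14, an ADP-ribosyltransferase, had 200 and 137 CPM in Ripk3-/- Mlkl-/- libraries, against 115, 126 and 98.6 CPM in Mlkl-/- libraries. Xaf1, a pro-apoptotic XIAP-binding protein, had 23.8 and 20.9 CPM in Ripk3-/- Mlkl-/- libraries, against 11.99, 15.1 and 10.4 CPM in Mlkl-/- libraries. Its 2 Ripk3-/- Mlkl-/- values were close together and clear of the other group (log2 0.84, SE 0.30).

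Ifit1, which binds foreign 5′ RNA ends, had 111 CPM in Ripk3-/- Mlkl-/- replicate 2 and 41.5 CPM in replicate 3, against 32.7, 47.9 and 24.9 CPM in Mlkl-/- libraries. Isg15, a ubiquitin-like modifier, had 50.8 and 26.5 CPM in Ripk3-/- Mlkl-/- libraries, against 19.0, 26.8 and 13.0 CPM in Mlkl-/- libraries. For both genes replicate 3 lay inside the Mlkl-/- range. Irf9, the DNA-binding subunit of the complex that answers type I interferon, had 238 and 177 CPM in Ripk3-/- Mlkl-/- libraries, against 148, 180 and 142 CPM in Mlkl-/- libraries. Ifit3 and Ifit3b are near-identical copies, and reads shared between them make their separate levels uncertain.

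**Figure D3:**
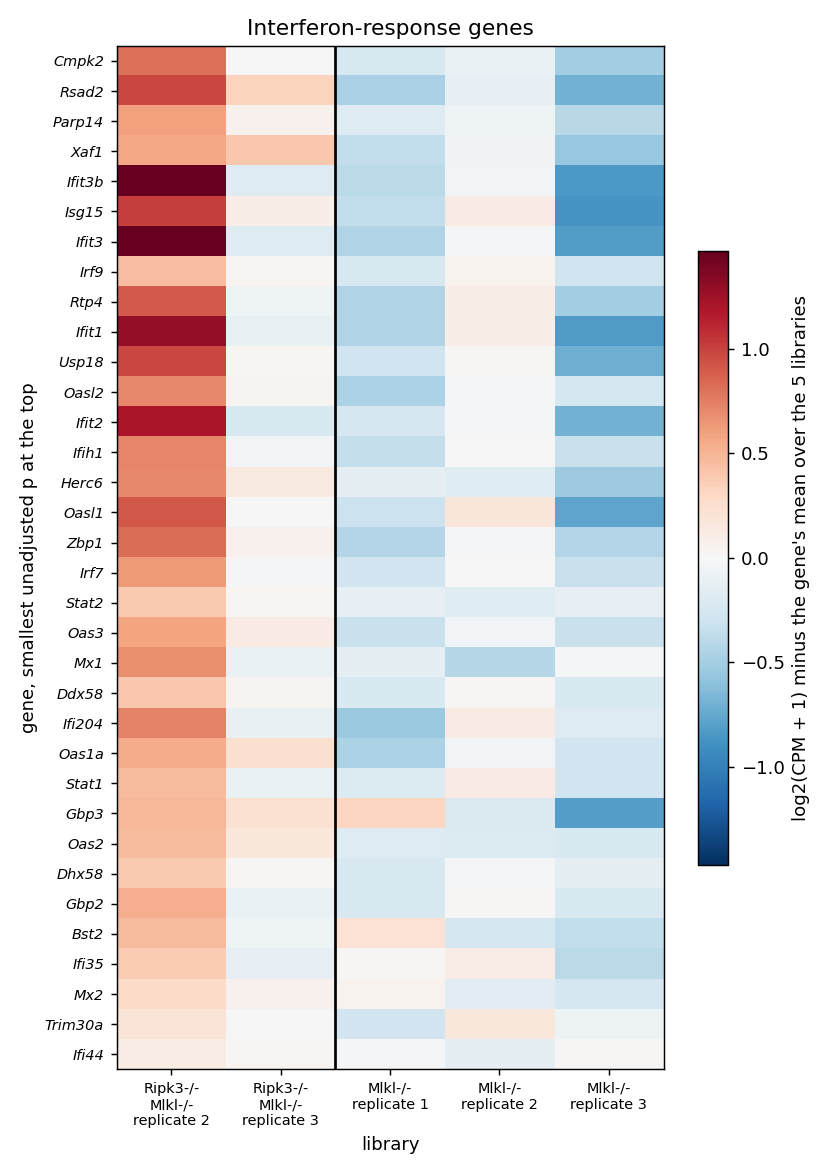
Heat map of 34 interferon-response genes (rows, smallest unadjusted p at the top) in the 5 libraries (columns), as log2(CPM + 1) minus the mean of the gene over the 5 libraries. Ripk3-/- Mlkl-/- replicate 2 is the highest library in every row, and replicate 3 is above all Mlkl-/- libraries in 16.

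Interferon-induced promoters often carry the element bound by the Irf9 complex, and 4 upstream regions of genes described above are shown as examples with and without it, chosen after their values and matches were seen. Each run is the 250 bases before a RefSeq start site in GRCm38.p6, read 5′ to 3′ along the gene's strand, with matches to GAAANNGAAA on either strand in capitals (overlapping matches are joined).
Rsad2, chr12:26456453-26456702, minus strand: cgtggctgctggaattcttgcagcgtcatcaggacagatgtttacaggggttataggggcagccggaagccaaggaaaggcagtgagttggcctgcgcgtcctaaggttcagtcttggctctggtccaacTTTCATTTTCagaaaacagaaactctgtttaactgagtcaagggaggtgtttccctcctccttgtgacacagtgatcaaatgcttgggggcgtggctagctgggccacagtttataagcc
Cmpk2, chr12:26468965-26469214, plus strand: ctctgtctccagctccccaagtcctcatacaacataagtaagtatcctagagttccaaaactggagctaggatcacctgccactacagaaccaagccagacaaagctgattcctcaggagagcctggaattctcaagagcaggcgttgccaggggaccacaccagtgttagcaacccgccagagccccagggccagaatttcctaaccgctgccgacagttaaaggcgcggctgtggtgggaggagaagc
Ifit1, chr19:34640639-34640888, plus strand: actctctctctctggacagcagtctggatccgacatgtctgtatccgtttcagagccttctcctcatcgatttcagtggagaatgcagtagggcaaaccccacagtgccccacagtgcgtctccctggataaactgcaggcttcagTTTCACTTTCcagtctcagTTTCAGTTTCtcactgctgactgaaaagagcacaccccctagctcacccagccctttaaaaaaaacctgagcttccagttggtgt
Isg15, chr4:156200819-156201068, minus strand: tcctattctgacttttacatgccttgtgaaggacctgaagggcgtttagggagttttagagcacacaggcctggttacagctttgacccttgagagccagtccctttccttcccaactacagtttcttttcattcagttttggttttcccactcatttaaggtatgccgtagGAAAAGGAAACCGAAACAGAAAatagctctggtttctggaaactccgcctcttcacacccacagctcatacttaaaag
Rsad2 has 1 match, Ifit1 has 2 and Isg15 has 3 that overlap. No match is in the Cmpk2 window, nor in the upstream windows of Xaf1 and Irf9, which are not shown. The Cmpk2 window ends at 26469214, inside the gene, whose annotated start is 26469117. The Xaf1 window ends at 72301628, also inside its gene, which starts at 72301461. Bases before these windows were not searched. Of the 34 genes 24 had a RefSeq promoter window of 250 bases before to 50 after the start, and 14 of these (58.3%) held a match, against 1079 of 27025 genes with a window (3.99%). A match describes the sequence and is not a measured binding site.

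Outside that list, the genes of smallest p are given as values, since none of them was called. Slc15a2, a proton-coupled peptide transporter, had 0.139 and 0.850 CPM in Ripk3-/- Mlkl-/- libraries, against 25.4, 66.3 and 6.64 CPM in Mlkl-/- libraries (log2 -6.00, SE 1.21, edgeR unadjusted p = 9.18e-05, adjusted p = 0.551). Both Ripk3-/- Mlkl-/- libraries lay below all the other 20 libraries of the series, where it ran from 3.80 to 47.4 CPM. Those 20 include the Ripk3-/- Mlkl-/- Ptpn6∆PMN libraries, at 27.5 to 35.4 CPM. With no filter on low counts it was called (adjusted p = 0.0282), and DESeq2 called it too (adjusted p = 9.69e-06). Over all alternatives its adjusted p ran from 9.69e-06 to 1.

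Cd14, the co-receptor that hands lipopolysaccharide to Tlr4, had 15.9 and 14.7 CPM in Ripk3-/- Mlkl-/- libraries, against 17.9, 142 and 122 CPM in Mlkl-/- libraries. The Mlkl-/- group was itself split, with replicate 1 near the Ripk3-/- Mlkl-/- level (log2 -2.62, SE 0.74, edgeR unadjusted p = 0.00219, adjusted p = 1). Gvin1, a very large interferon-inducible GTPase, had 133 and 101 CPM in Ripk3-/- Mlkl-/- libraries, against 72.7, 72.4 and 58.0 CPM in Mlkl-/- libraries (log2 0.79, SE 0.20). Slfn3, a Schlafen family protein, had 4.79 and 3.74 CPM in Ripk3-/- Mlkl-/- libraries, against 1.89, 2.37 and 1.84 CPM in Mlkl-/- libraries. Both genes have close paralogs, so their separate levels are uncertain.

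Gzmb, the cytotoxic protease granzyme B, had 2.79 and 1.997 CPM in Ripk3-/- Mlkl-/- libraries, against 0.880, 1.21 and 0.377 CPM in Mlkl-/- libraries. The lipid-binding protein gene Sec14l2 had 2.46 and 1.95 CPM in Ripk3-/- Mlkl-/- libraries, against 0.419, 0.372 and 0.518 CPM in Mlkl-/- libraries. For both, the levels were low. The groups did not overlap, as for 7.57% of all genes in this direction, and both genes were picked by their small p. Fkbp7, an endoplasmic reticulum prolyl isomerase, had 0.465 and 0.595 CPM in Ripk3-/- Mlkl-/- libraries and at most 0.0941 CPM in Mlkl-/- libraries. Also on the higher side were Pdia2, Fam57a, Ptpn13 and Gpatch1, with log2 changes of 4.38, 2.23, 1.71 and 0.69.

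Ybey, an endoribonuclease, had 4.88 and 6.16 CPM in Ripk3-/- Mlkl-/- libraries, against 8.47, 7.77 and 8.99 CPM in Mlkl-/- libraries. On the lower side with it were Zfp691, AA388235, Wdr66 and Cntnap5c, with log2 changes of -0.53, -0.66, -1.90 and -1.59.

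At 2 of these genes every Mlkl-/- library was at 0. C1ql3, a secreted C1q-like protein, had 26 counts over the Ripk3-/- Mlkl-/- libraries and 0 over the Mlkl-/- libraries, at least 12.8-fold higher against a floor of 3 counts over the group. Xntrpc had 59 counts over the Ripk3-/- Mlkl-/- libraries and 0 over the Mlkl-/- libraries, at least 29.1-fold higher on the same floor, and DESeq2 called it (adjusted p = 0.00612, range over alternatives 0.00612 to 1). The gene overlaps Trpc2 and Xndc1, and Trpc2 went the other way (log2 -7.16, SE 3.08), so the split of reads among these overlapping genes is uncertain. The pair Eif3j1 and Eif3j2, singled out after their values were seen, also went opposite ways. Eif3j1 had 0.186 and 0 CPM in Ripk3-/- Mlkl-/- libraries, against 9.31, 7.45 and 6.97 CPM in Mlkl-/- libraries. Its near-identical copy Eif3j2 had 19.7 and 14.9 CPM in Ripk3-/- Mlkl-/- libraries, against 8.26, 7.82 and 7.77 CPM in Mlkl-/- libraries. The sum of both copies overlapped, at 19.8 and 14.9 CPM in Ripk3-/- Mlkl-/- libraries and 17.6, 15.3 and 14.7 CPM in Mlkl-/- libraries. Levels also differed within 1 genotype. Ripk3-/- replicate 1 had 0 CPM of Eif3j1 and 17.7 CPM of Eif3j2, against 7.99 and 8.71 CPM in replicate 2. Wild-type libraries had 13.5 to 16.1 CPM of Eif3j1 and 1.37 to 1.99 CPM of Eif3j2. The split of reads between the copies is uncertain, and the cause of these differences was not tested.

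**Figure D4:**
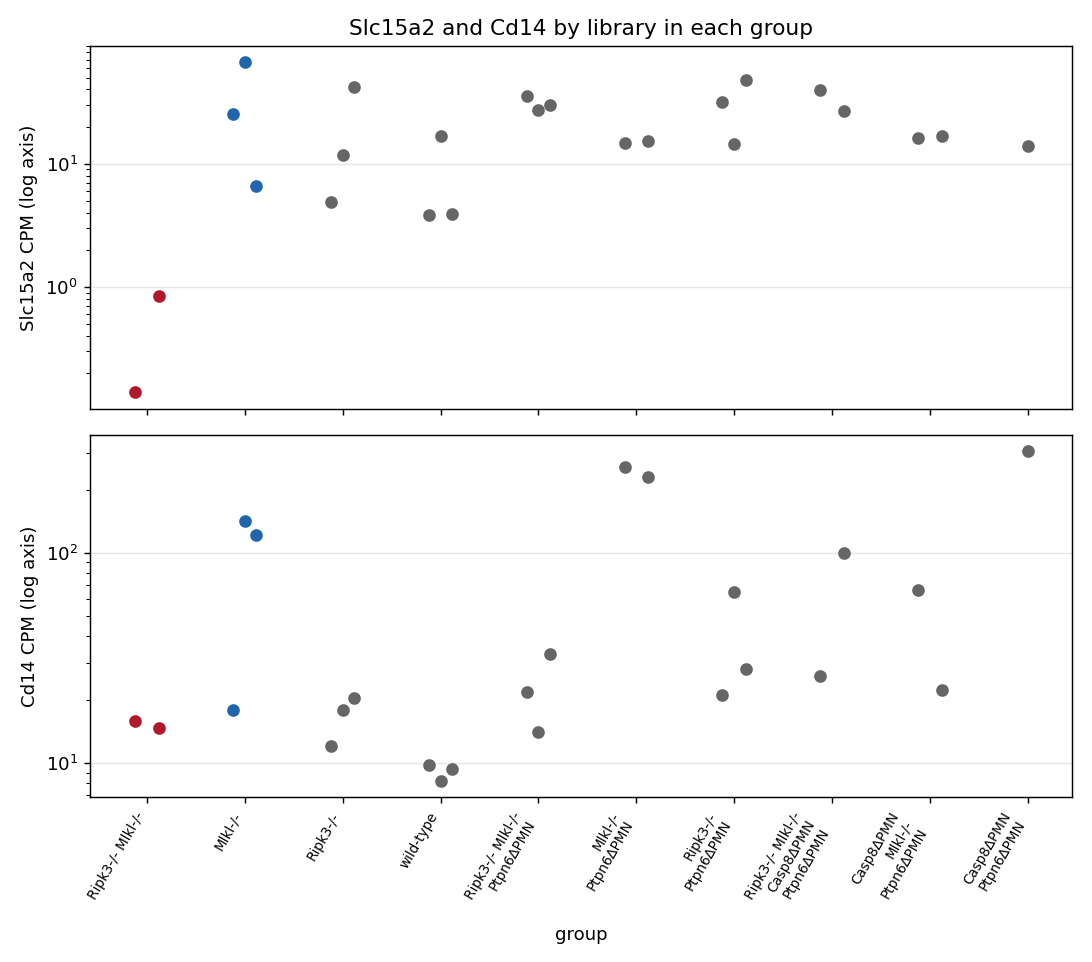
CPM (log axis) of Slc15a2 and Cd14 in each library of the 10 labelled groups. The 2 Ripk3-/- Mlkl-/- libraries are the lowest of all for Slc15a2, and for Cd14 they lie near Mlkl-/- replicate 1 (17.9 CPM) and the Ripk3-/- libraries.

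Genes next to the deleted locus were examined as well. Of 48 other genes tested within 1 Mb of Ripk3, 0 were called by edgeR or DESeq2 and 5 had an unadjusted p under 0.05, against 3.13% of all genes. These were Irf9 and Gzmb, described above, Mcpt8, Cma1 and Pabpn1. Cma1, a mast cell chymase, had 0.372 and 0.510 CPM in Ripk3-/- Mlkl-/- libraries, against 0.0839, 0.233 and 0.0941 CPM in Mlkl-/- libraries. Pabpn1, the nuclear poly(A)-binding protein, had 92.8 and 99.4 CPM in Ripk3-/- Mlkl-/- libraries, against 117, 115 and 112 CPM in Mlkl-/- libraries. The nearest tested genes, Adcy4, an adenylate cyclase, and Ltb4r1, the leukotriene B4 receptor, had log2 changes of -0.24 (SE 0.28) and -0.21 (SE 0.25), each smaller than its SE.

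Neutrophil programmes had medians near 0, and which side of 0 they lay on often turned on 1 library. Apart from Ripk3, 0 members of the 26 gene lists were called by edgeR or DESeq2. Azurophil granule genes had 3 of 14 log2 changes above 0 (median -0.11; 1 unadjusted p under 0.05), specific granule genes 1 of 13 (median -0.12) and gelatinase granule and late maturation genes 3 of 17 (median -0.08). Without Ripk3-/- Mlkl-/- replicate 2 the azurophil count was 1 of 14 (median -0.39), the specific 0 of 13 (median -0.39) and the gelatinase 1 of 17 (median -0.22). Without replicate 3 they were 9 of 14 (median 0.03), 11 of 13 (median 0.09) and 9 of 17 (median 0.02). Olfm4, a glycoprotein of a subset of neutrophils, was the specific granule gene with an unadjusted p under 0.05. It had 144 and 257 CPM in Ripk3-/- Mlkl-/- libraries, against 242, 364 and 342 CPM in Mlkl-/- libraries. NADPH oxidase genes had 1 of 8 above 0 (median -0.09), chemoattractant receptors 3 of 10 (median -0.15) and immediate early genes 4 of 17 (median -0.13). None of these 3 lists had a member with an unadjusted p under 0.05. Without Ripk3-/- Mlkl-/- replicate 3 the NADPH oxidase count was 6 of 8 (median 0.02).

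Inflammatory gene lists also had medians near 0. Interleukin-1 and inflammasome genes had 6 of 16 log2 changes above 0 (median -0.07), and NF-kB and TNF targets had 9 of 19 (median -0.01), with 0 unadjusted p under 0.05 in either list. Il1b, the secreted cytokine that inflammasomes mature, had 416 and 240 CPM in Ripk3-/- Mlkl-/- libraries, against 311, 529 and 408 CPM in Mlkl-/- libraries. Tnf had 10.1 and 24.8 CPM in Ripk3-/- Mlkl-/- libraries, against 23.8, 20.6 and 31.6 CPM in Mlkl-/- libraries. Both overlapped. Toll-like receptor signalling genes had 8 of 20 above 0 (median -0.02), with Cd14 as the member of unadjusted p under 0.05.

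BCL2 family genes had 5 of 14 log2 changes above 0 (median -0.04). Bcl2, the prosurvival founder of the family, had 8.27 and 15.9 CPM in Ripk3-/- Mlkl-/- libraries, against 6.92, 6.05 and 3.72 CPM in Mlkl-/- libraries (log2 1.12, SE 0.44, edgeR unadjusted p = 0.0200). Bcl2 is abundant in lymphocytes. Summed CPM of the T and NK cell markers was 84.8 and 134 in Ripk3-/- Mlkl-/- libraries, against 75.6, 78.3 and 49.1 in Mlkl-/- libraries. For the B cell markers it was 746 and 1204 in Ripk3-/- Mlkl-/- libraries, against 1121, 890 and 713 in Mlkl-/- libraries, and the groups overlapped. The part of lymphocytes in the Bcl2 values was not tested. Glycolysis and hypoxia genes had 15 of 23 above 0 (median 0.07), and 3 of them, Pdk1, P4ha1 and Adm, had an unadjusted p under 0.05 on the higher side. The count above 0 was 7 of 23 (median -0.10) without Ripk3-/- Mlkl-/- replicate 2, 9 of 23 (median -0.06) without Mlkl-/- replicate 1 and 9 of 23 (median -0.07) with a replicate block. Pdk1, a kinase that inhibits pyruvate dehydrogenase, had 12.6 and 13.0 CPM in Ripk3-/- Mlkl-/- libraries, against 7.76, 8.10 and 6.54 CPM in Mlkl-/- libraries. P4ha1, a collagen prolyl hydroxylase, had 14.4 and 10.0 CPM in Ripk3-/- Mlkl-/- libraries, against 8.76, 8.10 and 6.87 CPM in Mlkl-/- libraries.

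Cell cycle genes had 23 of 23 log2 changes above 0 (median 0.29), with 0 unadjusted p under 0.05 by edgeR and by DESeq2. Replicate 2 was above replicate 3 for 23 of 23 genes. Mki67 had 164 and 145 CPM in Ripk3-/- Mlkl-/- libraries and 170, 94.3 and 116 CPM in Mlkl-/- libraries. Mlkl-/- replicate 1 was thus as high as the Ripk3-/- Mlkl-/- libraries, and the count above 0 was 16 of 23 without Mlkl-/- replicate 3 or without Ripk3-/- Mlkl-/- replicate 2. The median was 0.75 without Mlkl-/- replicate 1, 0.04 without Mlkl-/- replicate 3 and 0.09 without Ripk3-/- Mlkl-/- replicate 2.

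Markers of other marrow cells varied between the libraries, and 1 library often set the direction. T and NK cell markers had 11 of 11 log2 changes above 0 (median 0.66), 2 with an unadjusted p under 0.05. The median was 1.06 without Ripk3-/- Mlkl-/- replicate 2 and 0.03 without replicate 3. Gzma, the cytotoxic protease granzyme A, had 16.7 and 17.3 CPM in Ripk3-/- Mlkl-/- libraries, against 7.92, 9.36 and 3.77 CPM in Mlkl-/- libraries. The T cell kinase Lck had 10.6 and 21.3 CPM in Ripk3-/- Mlkl-/- libraries, against 12.2, 9.26 and 5.84 CPM in Mlkl-/- libraries. Only Gzma of this pair separated the groups. Nkg7 and Klrb1c, expressed by NK cells, had log2 changes of 0.71 (SE 0.34) and 0.82 (SE 0.42).

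Erythroid markers had 13 of 13 log2 changes above 0 (median 0.71), and 7 separated the groups (7.57% of all genes in this direction). Their summed CPM, mostly haemoglobin, was 4908 and 10309 in Ripk3-/- Mlkl-/- libraries, against 4171, 5734 and 6957 in Mlkl-/- libraries. Gata1, the master factor of erythroid cells, had 7.07 and 6.67 CPM in Ripk3-/- Mlkl-/- libraries, against 3.90, 2.28 and 4.33 CPM in Mlkl-/- libraries (log2 0.97, SE 0.42, edgeR unadjusted p = 0.0318). Klf1, Epor and Car1 had log2 changes of 1.15, 1.11 and 1.14. Without Ripk3-/- Mlkl-/- replicate 3 the list median was 0.28.

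Basophil and mast cell markers had 1 of 8 log2 changes above 0 (median -0.86). The median was -0.55 without Mlkl-/- replicate 1, -1.28 without Mlkl-/- replicate 3 and -0.35 with a replicate block. Mcpt8, a basophil protease, had 28.8 and 22.9 CPM in Ripk3-/- Mlkl-/- libraries, against 94.4, 98.6 and 13.5 CPM in Mlkl-/- libraries. Prss34, another basophil protease, had 105 and 64.0 CPM in Ripk3-/- Mlkl-/- libraries, against 271, 281 and 46.4 CPM in Mlkl-/- libraries. For both, Mlkl-/- replicate 3 was below the Ripk3-/- Mlkl-/- libraries and the other Mlkl-/- libraries were well above. Gata2 and Cpa3 had the same order, with log2 changes of -0.82 (SE 0.39) and -0.90 (SE 0.44).

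Eosinophil markers had 6 of 10 log2 changes above 0 (median 0.71), but the Ripk3-/- Mlkl-/- libraries went opposite ways. Their summed CPM was 142 in replicate 2 and 47.6 in replicate 3, against 83.5, 101 and 64.3 in Mlkl-/- libraries, and without replicate 2 the median was -1.23. Prg2, the granule major basic protein, had 41.6 and 0.637 CPM in Ripk3-/- Mlkl-/- libraries, against 8.09, 5.96 and 1.74 CPM in Mlkl-/- libraries. Ear6 and Ear1, granule ribonucleases with close paralogs, had 4.23 and 0.170 CPM, and 4.70 and 0.0425 CPM, in the Ripk3-/- Mlkl-/- libraries. The corresponding Mlkl-/- ranges were 0.188 to 0.629 CPM and 0.419 to 0.791 CPM. Siglecf and Alox15 had log2 changes of -0.54 (SE 0.27) and -0.66 (SE 0.36).

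Stromal and endothelial markers had 7 of 8 log2 changes above 0 (median 1.27), and replicate 3 made most of this. Col1a1, a chain of type I collagen, had 18.2 and 293 CPM in Ripk3-/- Mlkl-/- libraries, against 6.33, 20.3 and 59.5 CPM in Mlkl-/- libraries. Col1a2, the other chain, had 8.32 and 170 CPM in Ripk3-/- Mlkl-/- libraries, against 0.419, 8.47 and 35.3 CPM in Mlkl-/- libraries. Without Ripk3-/- Mlkl-/- replicate 3 the list median was 0.01 and both collagen genes changed sign, to -0.66 and -0.82. Kdr and Bglap had log2 changes of 1.78 (SE 0.97) and 2.71 (SE 1.90).

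Plasma cell markers had 0 of 5 log2 changes above 0 (median -0.35). It was 2 of 5 without Ripk3-/- Mlkl-/- replicate 2 (median -0.0062) and without Mlkl-/- replicate 1 (median -0.17). Jchain, the immunoglobulin joining chain, had 5.25 and 49.1 CPM in Ripk3-/- Mlkl-/- libraries, against 80.5, 115 and 34.8 CPM in Mlkl-/- libraries. Xbp1, a factor of secretory cells that neutrophils also express, had 75.7 and 82.0 CPM in Ripk3-/- Mlkl-/- libraries, against 98.9, 121 and 95.4 CPM in Mlkl-/- libraries. Xbp1 separated the groups and Jchain did not. Mzb1 and Sdc1 had log2 changes of -0.35 (SE 0.47) and -0.17 (SE 0.48).

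Megakaryocyte and platelet markers had 3 of 8 log2 changes above 0 (median -0.36). Without Mlkl-/- replicate 3 it was 5 of 8 (median 0.24), without Ripk3-/- Mlkl-/- replicate 3 it was 2 of 8 (median -0.64), and with the compared libraries alone, where 6 were tested, the median was 0.0035. Itga2b, the platelet integrin chain, had 10.6 and 11.8 CPM in Ripk3-/- Mlkl-/- libraries, against 24.4, 22.3 and 11.4 CPM in Mlkl-/- libraries. Gp1bb and Gp9 had log2 changes of -0.44 (SE 0.30) and 0.60 (SE 0.57). B cell markers had 10 of 11 above 0 (median 0.13), monocyte markers 7 of 10 (median 0.18), dendritic cell markers 8 of 9 (median 0.22), macrophage markers 3 of 14 (median -0.09) and the neutrophil markers 3 of 12 (median -0.08). Of these 5 lists, 0 members had an unadjusted p under 0.05. The neutrophil marker count was 0 of 12 (median -0.36) without Ripk3-/- Mlkl-/- replicate 2 and 9 of 12 (median 0.20) without replicate 3. Macrophage markers summed to 213 and 425 CPM in Ripk3-/- Mlkl-/- libraries, against 213, 383 and 495 CPM in Mlkl-/- libraries.

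**Figure D5:**
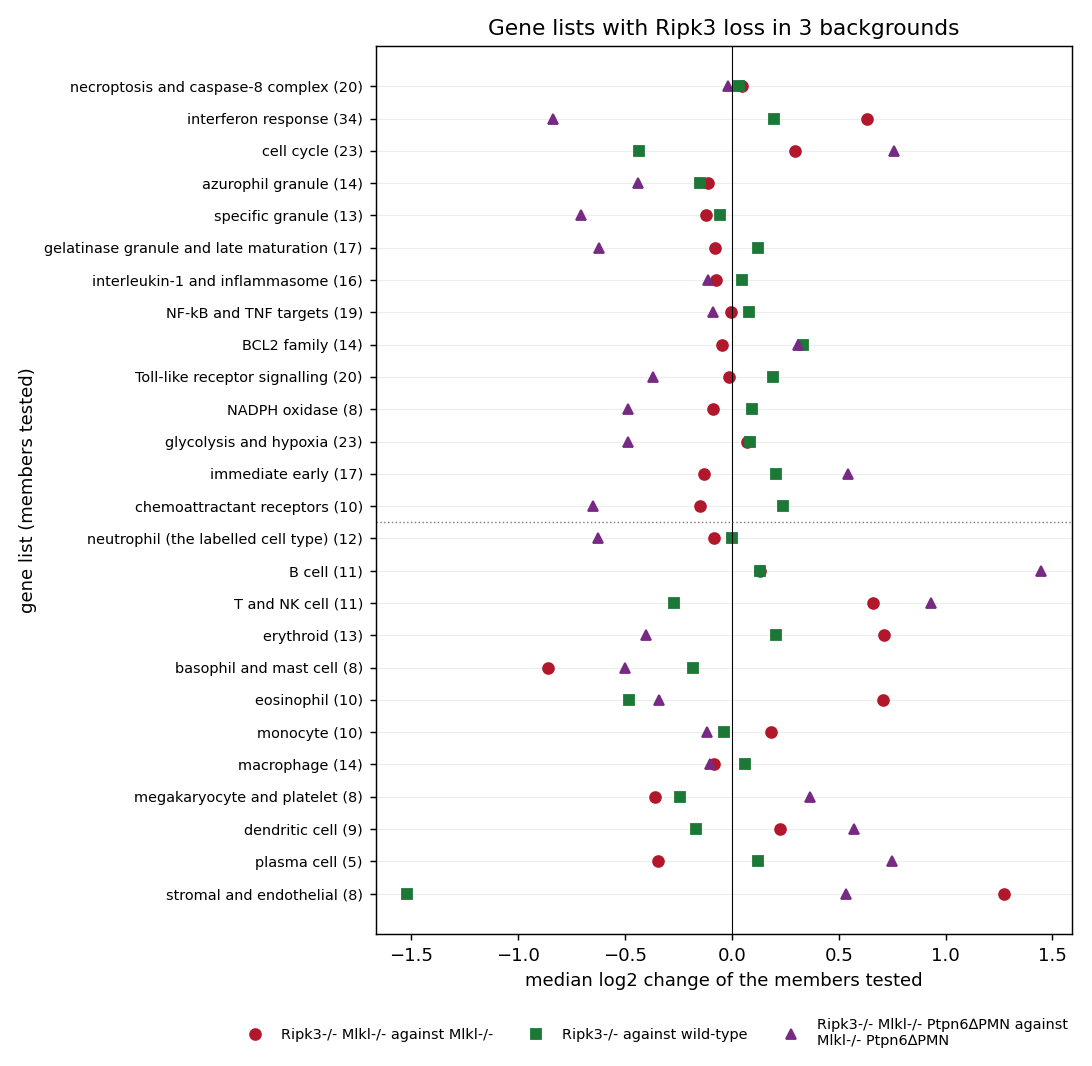
Median log2 change of the tested members of 26 gene lists (pathways above the dotted line, cell type markers below) for Ripk3 loss in 3 backgrounds that share no library. Interferon-response genes are at 0.63 in Mlkl-/-, 0.20 in wild-type and -0.84 in Mlkl-/- Ptpn6∆PMN.

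Ripk3 loss can be followed in 2 other comparisons that share no library with this one. In Ripk3-/- against wild-type neutrophils, 37 genes were called (0.228%), and in Ripk3-/- Mlkl-/- Ptpn6∆PMN against Mlkl-/- Ptpn6∆PMN, 3 were called (0.0185%), Ripk3 among them. Leaving out 1 wild-type library lowered the first count to 23 (replicate 1) or 24 (replicate 2). The second was 23 without Mlkl-/- Ptpn6∆PMN replicate 1 and 4861 without Ripk3-/- Mlkl-/- Ptpn6∆PMN replicate 3, and DESeq2 called 1486. Of the 244 genes higher here at an unadjusted p under 0.05, 61.1% were also above 0 in Ripk3-/- against wild-type, where 49.5% of all genes were. In the Ptpn6-deleted background it was 50.4%, against 54.8% of all genes. Of the 263 lower genes other than Ripk3, 58.2% were below 0 in Ripk3-/- against wild-type (50.5% of all genes) and 52.1% in the Ptpn6-deleted background (45.1% of all genes).

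Interferon-response genes did not keep 1 direction. In Ripk3-/- against wild-type neutrophils 26 of 34 had a log2 change above 0, the median was 0.20 and 0 had an unadjusted p under 0.05, against 6.86% of all genes. In Ripk3-/- Mlkl-/- Ptpn6∆PMN against Mlkl-/- Ptpn6∆PMN neutrophils 1 of 34 was above 0 and the median was -0.84. There 28 had an unadjusted p under 0.05, against 26.1% of all genes, and 0 were called by edgeR. The difference between the change in Mlkl-/- and that in Mlkl-/- Ptpn6∆PMN neutrophils was itself tested, and was above 0 for 34 of 34 genes (44.8% of all genes) with a median of 1.49. In that test 31 had an unadjusted p under 0.05, against 10.9% of all genes, and 0 were called (lowest adjusted p = 0.185, edgeR). Over all genes that difference test called 0 by edgeR and 60 by DESeq2, and by edgeR 1 without Mlkl-/- replicate 1, 15 without Ripk3-/- Mlkl-/- replicate 3 and 557 without Ripk3-/- Mlkl-/- Ptpn6∆PMN replicate 3. The mean of log2(CPM + 1) over the list was 5.31, 5.48 and 6.12 in Ripk3-/- Mlkl-/- Ptpn6∆PMN libraries and 6.23 and 6.72 in Mlkl-/- Ptpn6∆PMN libraries. Residual Ptpn6 also differed there, at 255 to 314 CPM in Ripk3-/- Mlkl-/- Ptpn6∆PMN libraries and 182 and 193 CPM in Mlkl-/- Ptpn6∆PMN libraries, and its part in the interferon values was not tested.

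Cell cycle genes were above 0 for 0 of 23 in Ripk3-/- against wild-type (median -0.43) and for 23 of 23 in the Ptpn6-deleted background (median 0.76). Slc15a2 had log2 changes of 1.26 (SE 0.75) and 1.04 (SE 0.85) in those comparisons, against -6.00 here. Its difference between Mlkl-/- and wild-type backgrounds was -7.26 (SE 1.41, edgeR adjusted p = 0.101), and that between Mlkl-/- and Mlkl-/- Ptpn6∆PMN was -7.04 (SE 1.48, adjusted p = 0.185). Cd14 had a log2 change of 0.88 (SE 0.62) in Ripk3-/- against wild-type and -3.41 (SE 0.68) in the Ptpn6-deleted background. Over all genes the difference between the Mlkl-/- and wild-type backgrounds was called for 6 genes (0.037%), 0 of them in the lists. That count was 3 without wild-type replicate 1 or without Ripk3-/- replicate 3, 1 without Ripk3-/- Mlkl-/- replicate 2 and 18 without Ripk3-/- Mlkl-/- replicate 3. Ripk3 itself was called lower in all 3 comparisons.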

How the data were processed

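Bone marrow neutrophils were taken at the 68%/78% Percoll interface and sequenced as mRNA with 100 base paired reads, per the labels' protocols. The authors deposited expected counts per gene symbol. Salmon 0.14.1, the build GRCm38.p6 and DESeq2 are named in the submitters' processing notes, while the step from transcripts to genes is not given in the sources used here. The counts were rounded to whole numbers. The 23 libraries of 9 labelled groups with 2 or more libraries entered 1 model (edgeR 4.0.16, limma 3.58.1, R 4.3.3; TMM, filterByExpr with minimum count 10 and minimum total 15, quasi-likelihood F test, 14 residual degrees of freedom), and p-values were adjusted by Benjamini-Hochberg over 16206 genes. The group of 1 library and the library with conflicting labels stayed out of the fit. The code was tested on simulated data. RefSeq supplied coordinates for 92.6% of tested symbols. Promoter sequences are from RefSeq, GRCm38.p6. An SE is the log2 change divided by the root of F; 5 genes had none. A pseudocount of 1 was used for means of log2(CPM + 1).

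Alternatives were DESeq2 size factors, no filter, DESeq2 1.42.0, the compared libraries alone, the omission of each library in turn and a block for the replicate number. The named genes are the 4 targeted genes, called genes, the 20 smallest p, the 4 members of smallest p in lists with a median beyond 0.3, and genes near Ripk3. One gene that this rule names is not reported here. Predicted genes were not named, and other list members were chosen after their values were seen. The comparison, 14 pathway lists and 12 marker lists were chosen with earlier results of these data known. Figures were drawn with matplotlib 3.10.9.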

Additional observations from a re-analysis of the deposited data

Results flagged for a closer look

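The effect of Ripk3 loss differed between the Mlkl-/- and wild-type backgrounds, by edgeR's test of the difference itself, for 6 of 16206 genes (0.037%), 1 of them a predicted gene. In each of the other 5 the gap lies between wild-type libraries and all knockout groups, and the change within the Mlkl-/- background was not called. Ugt1a6b, a glucuronosyltransferase, had a difference in log2 change of -3.52 (adjusted p = 0.000543). Its level was 51.7 ± 0.682 CPM in Ripk3-/- Mlkl-/- and 74.6 ± 15.4 CPM in Mlkl-/- libraries (SD, n = 2 and 3), and 54.0 ± 10.5 CPM in Ripk3-/- and 6.79 ± 3.01 CPM in wild-type libraries (SD, n = 3 each). Arl4c, a small GTPase, had a difference of -1.70 (adjusted p = 0.0169), with 167 CPM in Ripk3-/- Mlkl-/-, 184 in Mlkl-/-, 165 in Ripk3-/- and 55.7 in wild-type libraries on average. Klra17, a lectin receptor of the Klra family, had a difference of -1.66 (edgeR adjusted p = 0.0360), with 149 CPM in Ripk3-/- Mlkl-/-, 145 in Mlkl-/-, 112 in Ripk3-/- and 34.2 in wild-type libraries. Klra8 went the other way, with a difference of 4.93 (adjusted p = 0.0325) and 0.468, 0.182, 0.351 and 4.28 CPM in the same order of groups. Klra16 had a difference of -7.30 (adjusted p = 0.0169), a fitted value and no bound, because Ripk3-/- libraries held 121 counts and wild-type libraries 0. Klra and Ugt1a genes have close paralogs or share exons, so their separate levels are uncertain.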

How the results depend on the processing

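Ripk3 was called under every alternative run (log2 -6.25 to -5.73, adjusted p 5.66e-06 to 0.0402). The count of 1 called gene was 2 with no filter on low counts (with Slc15a2), 2 with the compared libraries alone (with Eif3j1), 3 by DESeq2 (with Slc15a2 and Xntrpc) and 1 to 17 when libraries were left out, 17 without Ripk3-/- Mlkl-/- replicate 3, which leaves 1 library assumed to vary like the rest. Cntnap5c was then called (adjusted p = 0.0489, range 0.0489 to 1). The 2 shared replicate numbers give no pairing in the labels (correlations of deviations 0.130 and 0.153), and with a replicate block the count was 1. In Ripk3-/- against wild-type the 37 calls were 56 with no filter, 182 with the compared libraries alone, 99 by DESeq2, 34 with the block and 23 to 38 with libraries left out. In the Ptpn6-deleted background the 3 calls were 324, 1, 1486, 4637 and 2 to 4861, 4861 without Ripk3-/- Mlkl-/- Ptpn6∆PMN replicate 3. The 6 differences from the wild-type background were 13 with no filter, 22 by DESeq2 and 1 to 18 with libraries left out, and the 0 differences from the Ptpn6-deleted background were 60 with the block, 60 by DESeq2 and 0 to 557, 557 without that same replicate 3. The causes were not tested. Changes near 0 or resting on 1 library turned sign: with libraries left out Mlkl ran from -0.25 to 0.24, Ptpn6 from -0.19 to 0.058, Ear6 from -1.46 to 3.13, Ear1 from -3.67 to 2.94, Sdc1 from -0.48 to 0.13, Col1a1 from -0.66 to 3.55, Col1a2 from -0.82 to 4.34 and Klra17 from -0.15 to 0.22, and with the block Sdc1 was 0.15 and Klra17 -0.11. The median log2 change of all genes stayed between -0.0035 and 0.027. The interferon-response median stayed above 0 (0.22 to 0.87), while with libraries left out the monocyte median ran from -0.30 to 0.90, the macrophage median from -1.70 to 0.65 and the B cell median from -0.25 to 0.44.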

Other observations

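The library with conflicting labels, titled as a Ripk3-/- Mlkl-/- replicate and given as Mlkl-/- Ptpn6∆PMN elsewhere, had 0.0878 CPM of Ripk3 (2 counts), 0.747 CPM of Mlkl, 10.0 CPM of Slc15a2 and 12.7 CPM of Cd14. Rsad2 was at 341 CPM and Cmpk2 at 213 CPM in it. Its mean of log2(CPM + 1) over the interferon-response genes was 6.08, and over the cell cycle genes 4.45.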
